A study of Homo sapiens with 2 samples.

Results

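Amino acid transporter genes were examined in FaDu cells, an established human line of a hypopharyngeal squamous carcinoma. The members were every gene of the deposited table whose symbol places it in solute carrier family SLC1, SLC3, SLC7, SLC36, SLC38 or SLC43, which gave 36 of 16951 genes. There were 6 genes of SLC1, 2 of SLC3, 10 of SLC7, 4 of SLC36, 11 of SLC38 and 3 of SLC43. The study sequenced total RNA of 2 samples of these cells on day 2, 1 with a control shRNA (shControl; the series text speaks of blank vectors) and 1 with an shRNA against KIF2C (shKIF2C). An shRNA is an expressed hairpin RNA that directs the degradation of a matching mRNA, and KIF2C encodes a kinesin that depolymerises microtubule ends. Nothing further on the shRNA sequence, the vector or clonal selection was used here.

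The table calls its libraries C1 and D1, and the labels do not tie these codes to the shRNAs. KIF2C had 783 reads in C1 and 3036 in D1, 4.13-fold more in the latter (log2 ratio 2.04), against a reading of C as control and D as knock-down. Which library is the knockdown is therefore not established, and every difference is given as the library labelled D1 against the library labelled C1. With 1 library per condition there is no measure of the spread between cultures, no test was made, and each 95% interval covers counting error only. The libraries held 18189742 and 18560024 estimated counts. All 8 squamous epithelial markers examined were present in both libraries, and their summed level was 1834 TPM in C1 and 4732 TPM in D1, with 6 markers at least 2-fold higher in D1. KRT5, KRT14 and KRT6A differed most (log2 ratios 2.77, 3.12 and 2.78), while CDH1 (-0.19) and EPCAM (-0.08) lay the other way with intervals below 0. Of 5 fibroblast markers, COL3A1 and PDGFRB were in the table, at 0 reads in C1 and 1 read each in D1. The 4 leukocyte markers in the table summed to 22.6 and 13.4 TPM, mostly from CD14. The 3 endothelial markers in the table summed to 29.2 and 7.40 TPM, almost all from CDH5 (1000 and 249 reads). No marker of the leukocyte or endothelial lists was at 0 among those in the table, but the others had few reads. PTPRC had 15 and 11 reads, CD3E 7 and 3, PECAM1 12 and 13, LYZ 32 and 35, and VWF 22 and 29. The log2 ratios of LYZ (0.22), VWF (0.48) and PECAM1 (0.20) lay above 0 with intervals that held 0. The lower sums in D1 thus follow CD14 and CDH5, and not the lists as a whole. Below, C1 and D1 stand for these libraries. The part of these differences in the transporter values was not tested, and in bulk RNA fewer cells of a kind and less RNA per cell cannot be told apart.

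Amino acids cross membranes on carriers that differ in substrate and in driving force. Several SLC7 proteins are light chains that reach the cell surface bound to an SLC3 heavy chain, to which a disulfide bridge links them. These light chains exchange one amino acid for another. Other SLC7 proteins carry cationic amino acids on their own, SLC1 and SLC38 carriers mostly use the sodium gradient, and SLC36 carriers mostly use protons. In squamous carcinomas LAT1 (SLC7A5) and xCT (SLC7A11) are known for bringing in leucine and cystine. Transcription factor ATF4, which is made when amino acids are scarce or the endoplasmic reticulum is stressed, is known to induce many of these genes.

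Of the 36 members, 22 reached 1 CPM (TMM-scaled reads per 1000000) in at least 1 library, and these are the members with ratios below. TMM, the trimmed mean of M values, is a scaling that sets typical genes equal between libraries, and 1 CPM equals 19.0 reads in C1 and 17.8 in D1. Library D1 had more mRNA of the surface exchanger genes SLC7A5 (leucine), SLC1A5 (glutamine, alanine and serine) and SLC1A4 (alanine and serine). The same held for SLC3A2, the heavy chain of SLC7 light chains, for the cystine carrier gene SLC7A11, for the arginine carrier gene SLC7A1 and for SLC38A1. It did not hold for every carrier of these substrates. SLC7A2, another arginine carrier gene, was lower from few reads, and SLC7A8, another leucine carrier gene, showed no detectable difference. Library D1 had less mRNA for SLC38A2 and for the SLC38 and SLC36 carriers of lysosomes. At least 2-fold differences were found for 3 members that were higher, SLC1A4, SLC7A5 and, by TMM scaling but not by plain library totals, SLC1A5, and for 2 that were lower, SLC1A1 and SLC7A2. Both of the lower ones passed the filter only through C1. SLC1A1 had 3.32 CPM in C1 and 0.73 in D1, and SLC7A2 had 2.90 and 0.67. With a filter of 10 CPM the lower count was 0, beside 2.19% of the 9855 genes past that filter. Over all 13225 genes past the 1 CPM filter, 2.4% were at least 2-fold higher and 4.54% at least 2-fold lower. The counting interval lay above 0 for 8 members and below 0 for 8, against 30.9% and 27.2% of all genes. Intervals narrow with depth. Of 16 members at 10 CPM or more, 8 lay above 0 and 5 below, beside 3719 and 2870 of 9855 genes. The members' median log2 ratio was 0.11 and that of all genes 0.01.

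**Figure D1:**
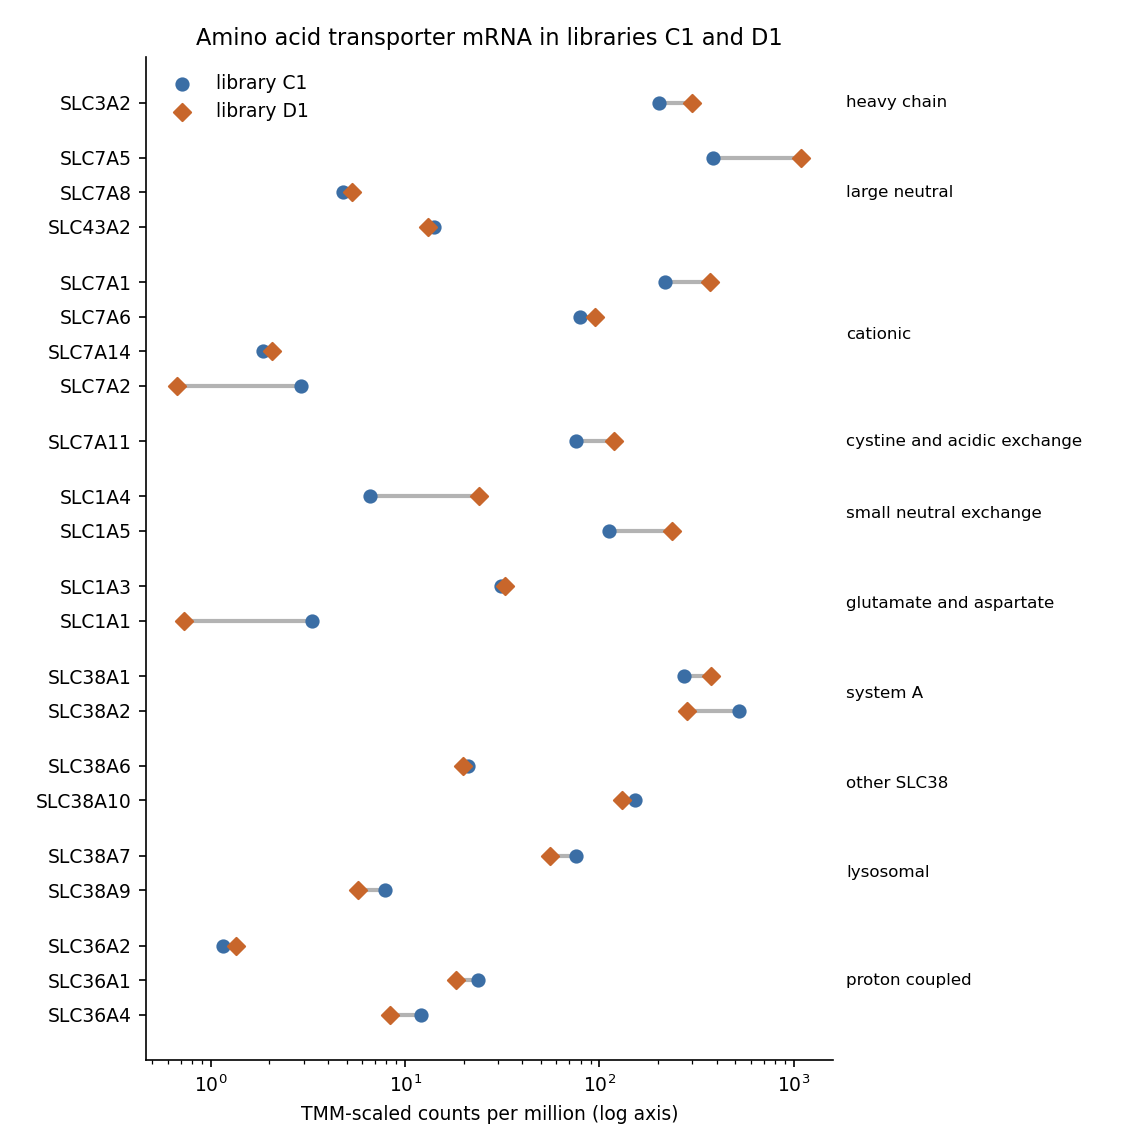
TMM-scaled CPM (log axis) of the 22 members past the filter in C1 (circles) and D1 (diamonds), ordered by substrate class, with 1 library per point. SLC7A5 lies at 384 CPM in C1 and 1092 CPM in D1, while SLC38A2 lies at 525 and 282 CPM.

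The summed mRNA of all members made up 0.232% of the reads of C1 and 0.306% of those of D1. Compared by family, SLC7 had 14564 reads in C1 and 29986 in D1, with a log2 ratio of 1.13 (95% interval 1.10 to 1.16). SLC1 had 2923 and 5239 reads (0.93, 0.87 to 0.998), and SLC3 had 3822 and 5330 (0.57, 0.51 to 0.63). These are the families of most surface exchangers, and the summed reads of each family were higher in D1. Not every member was, since SLC1A1 and SLC7A2 were lower. SLC38 had 19982 and 15482 reads (-0.28, -0.31 to -0.25), and SLC36 had 699 and 498 (-0.40, -0.57 to -0.23). SLC43 had 278 and 245 reads, and its interval held 0 (-0.09, -0.35 to 0.16). Each sum follows its most abundant genes, so the members are described in turn.

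Sequence upstream of a start was read for 29 of the 36 members from a table of RefSeq promoter sequences (GRCh38.p14), as the 250 bases before the start used there. That start can lie inside the bounds of the RefSeq gene, as for SLC38A1 and SLC36A1. The 4 windows printed here are upstream of SLC7A5 (chr16:87869508-87869757), SLC1A5 (chr19:46788595-46788844) and SLC7A1 (chr13:29595689-29595938), chosen as examples of surface carrier genes that were higher in D1, and of SLC36A4 (chr11:93197992-93198241), which was lower. All lie on the minus strand and are written along it, and no exon of a coding gene in GENCODE 29 falls in them. Capitals mark a match to a searched motif, and a window without capitals holds none.
SLC7A5: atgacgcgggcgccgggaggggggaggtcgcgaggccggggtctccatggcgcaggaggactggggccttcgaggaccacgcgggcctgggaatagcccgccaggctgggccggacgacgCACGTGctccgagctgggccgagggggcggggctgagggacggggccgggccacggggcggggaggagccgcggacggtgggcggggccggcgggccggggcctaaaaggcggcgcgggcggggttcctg
SLC1A5: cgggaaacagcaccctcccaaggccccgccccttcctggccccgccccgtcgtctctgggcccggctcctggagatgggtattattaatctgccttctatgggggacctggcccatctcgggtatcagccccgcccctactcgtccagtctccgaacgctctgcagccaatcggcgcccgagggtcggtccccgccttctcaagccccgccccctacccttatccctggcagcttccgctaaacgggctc
SLC7A1: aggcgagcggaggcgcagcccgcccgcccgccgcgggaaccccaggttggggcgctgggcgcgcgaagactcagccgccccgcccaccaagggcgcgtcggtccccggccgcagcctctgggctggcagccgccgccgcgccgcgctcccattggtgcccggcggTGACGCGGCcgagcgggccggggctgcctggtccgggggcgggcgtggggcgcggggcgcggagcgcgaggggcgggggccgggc
SLC36A4: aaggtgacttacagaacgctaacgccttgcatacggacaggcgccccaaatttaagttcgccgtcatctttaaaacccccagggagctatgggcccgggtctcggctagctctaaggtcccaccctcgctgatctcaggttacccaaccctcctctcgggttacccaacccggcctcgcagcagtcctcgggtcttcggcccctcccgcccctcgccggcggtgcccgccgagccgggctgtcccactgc
The motifs were searched on both strands. They were the core of the ATF4 composite element, TGATGNAA, the antioxidant element TGACNNNGC to which NRF2 binds, and the E-box CACGTG to which MYC and MAX bind. No matches overlapped. The E-box of SLC7A5 starts 130 bases before the start, and the antioxidant element of SLC7A1 starts 85 bases before it. Among the 29 member windows, the ATF4 core was found in 1 (SLC1A3), the antioxidant element in 3 (SLC7A1, SLC7A6 and SLC7A7) and the E-box in 3 (SLC7A5, SLC38A5 and SLC43A1). Of all 27305 windows of this length, 3.19% held the ATF4 core, 11.1% the antioxidant element and 6.46% the E-box. A match describes letters and not binding, and elements in introns or farther upstream were not searched.

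Large neutral amino acids, among them leucine, isoleucine, phenylalanine and tryptophan, are taken up by the LAT carriers. SLC7A5, which encodes LAT1, the light chain that exchanges intracellular glutamine for extracellular leucine, had 7272 reads in C1 and 19452 in D1. That is a 2.85-fold higher level in D1, with a log2 ratio of 1.51 (95% interval 1.47 to 1.55). The related LAT2 gene SLC7A8 had 91 and 95 reads (0.15, -0.28 to 0.58), so a difference was not detectable at this depth. The same held for SLC43A2, the gene of the uniporter LAT4, with 266 and 234 reads (-0.09, -0.35 to 0.16). SLC43A1, the LAT3 gene, was below the filter with 12 and 10 reads. The class as a whole had 7641 and 19791 reads (1.46, 1.43 to 1.50), and SLC7A5 supplied nearly all of them. SLC7A5 lies at chr16:87830023-87869507 in GRCh38.p14, its estimated counts were not whole, and the RefSeq annotation lists the pseudogenes SLC7A5P1 and SLC7A5P2 on chromosome 16 too, so part of its reads may be shared with these copies.

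The heavy chain gene SLC3A2, whose product 4F2hc (CD98) carries LAT1, LAT2, xCT and the y+LAT light chains to the surface, had 3820 reads in C1 and 5330 in D1 (log2 ratio 0.57, 0.51 to 0.63). It was thus higher in D1, but by less than SLC7A5. On the per-length TPM scale deposited by the authors, SLC3A2 stood at 226 TPM and its measured light chains together at 241 TPM in C1, a ratio of 0.939. In D1 the levels were 299.7 and 541 TPM, a ratio of 0.554. The level of SLC7A5 alone was 0.842 times that of SLC3A2 in C1 and 1.61 times in D1. These ratios are taken within a library and do not depend on the scaling between libraries. SLC3A1, the heavy chain rBAT of kidney and gut, had 2 reads in C1 and 0 in D1, and a count of 0 allows up to 3.

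Cystine enters through xCT, the SLC7A11 light chain, in exchange for glutamate. SLC7A11 had 1442 reads in C1 and 2114 in D1, with a log2 ratio of 0.64 (0.54 to 0.74). Its TPM level relative to SLC3A2 was 0.0865 in C1 and 0.08605 in D1. On this scale xCT and heavy chain mRNA kept nearly the same proportion, while LAT1 and heavy chain mRNA did not. TPM depends on transcript length, which for SLC7A11 was longer in D1 by 0.09 on the log2 scale, relative to the median gene. By counts the log2 ratio of SLC7A11 was slightly above the 0.57 (0.51 to 0.63) of SLC3A2, with overlapping intervals. SLC7A9, the light chain partner of rBAT, was below the filter with 10 and 6 reads.

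Cationic amino acids, arginine, lysine and ornithine, are carried by CAT proteins and by the y+LAT exchangers. SLC7A1, the gene of CAT1, had 4140 and 6582 reads (0.76, 0.70 to 0.82). SLC7A6, the y+LAT2 gene, had 1513 and 1681 (0.24, 0.14 to 0.34), and its exons overlap those of SLC7A6OS on the opposite strand. Both genes were higher in D1, SLC7A6 by little. SLC7A2, the gene of CAT2, was the member of this class that was lower, with 55 reads in C1 and 12 in D1 (-2.06, -3.14 to -1.19), at the low end of measured levels. SLC7A14, a CAT-like gene, had 35 and 37 reads (0.17, -0.54 to 0.88). SLC7A7, the y+LAT1 gene, had 6 and 5 reads, and SLC7A4, another CAT-like gene, 0 and 2. The class sum was 5749 and 8319 reads (0.62, 0.57 to 0.67).

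The small neutral amino acid exchangers of SLC1 were both at least 2-fold higher in D1, except that SLC1A5 was under 2-fold with plain library totals or the deposited TPM or FPKM. SLC1A5, which encodes ASCT2, a sodium-dependent exchanger of glutamine, alanine and serine, had 2129 reads in C1 and 4211 in D1. Its log2 ratio was 1.07 (0.999 to 1.15), or 2.11-fold. SLC1A4, the gene of the related ASCT1, had 125 and 428 reads, and at 1.86 (1.58 to 2.17), or 3.63-fold, it had the largest upward ratio of the 22 members. On the TPM scale SLC1A4 stood at 3.17 and 10.4, far below SLC1A5 at 95.2 and 180.4. The pair summed to 2254 and 4639 reads (1.13, 1.06 to 1.20). No source used here says whether counting used strand. Of the 22 members past the filter, 7 have exons that overlap an opposite-strand gene in GENCODE 29, SLC7A5, SLC7A11, SLC7A14 and SLC38A10 among them.

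The glutamate and aspartate carriers of SLC1, which clear acidic amino acids with sodium, did not share that direction. SLC1A3, the gene of EAAT1, had 589 reads in C1 and 578 in D1 (0.06, -0.11 to 0.23), and its sign changed with the scaling. SLC1A1, the gene of EAAT3, had 63 and 13 (-2.14, -3.17 to -1.31), the lowest ratio of the 22 members, also from few reads. SLC1A2 and SLC1A6, known as brain carriers, were below the filter with 15 and 8 reads and with 2 and 1. SLC1A3 gave most of the class sum, whose interval held 0 (669 and 600 reads, -0.07, -0.23 to 0.09).

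**Figure D2:**
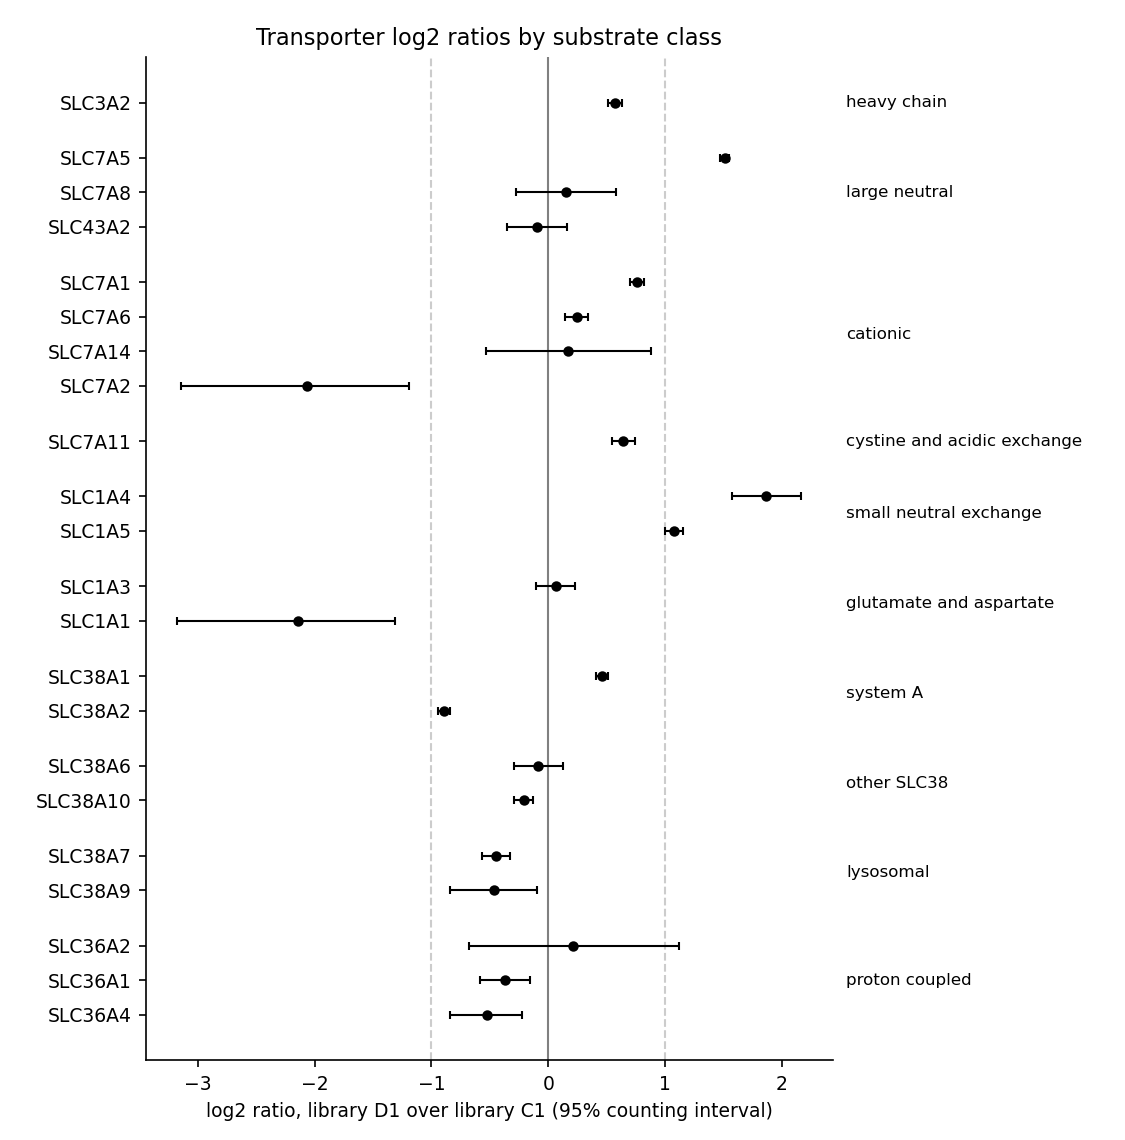
Log2 ratio of D1 over C1 for the 22 members past the filter (points), with 95% counting intervals (bars) and dashed lines at 2-fold, by substrate class. SLC1A4, SLC7A5 and SLC1A5 lie above the upper line at 1.86, 1.51 and 1.07, and SLC1A1 and SLC7A2 lie below the lower line at -2.14 and -2.06.

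System A carriers bring in alanine, glutamine and other small neutral amino acids with sodium, and their abundant genes lay on opposite sides. SLC38A2, which encodes SNAT2, had 9945 reads in C1 and 5030 in D1, a 1.86-fold lower level in D1 (log2 ratio -0.89, -0.94 to -0.84). SLC38A1, which encodes SNAT1, had 5165 and 6667 reads (0.46, 0.41 to 0.51). These genes are neighbours on chromosome 12, with 89.1 kb between SLC38A1 (chr12:46183063-46269043) and SLC38A2 (chr12:46358188-46372773). The TPM level of SLC38A2 was 2.96 times that of SLC38A1 in C1 and 1.17 times in D1. SLC38A4, the next gene on that chromosome and known as a liver and placenta carrier, had 2 and 0 reads. The class sum was 15112 and 11697 reads (-0.28, -0.31 to -0.24), a value that hides the opposite directions of its genes. The system N genes SLC38A3 and SLC38A5, whose products carry glutamine, histidine and asparagine, were below the filter, with 0 reads in each library for SLC38A3 and 2 in each for SLC38A5.

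SLC38 genes whose products act on lysosomes were lower in D1. SLC38A7, which encodes a lysosomal exporter of glutamine and asparagine, had 1436 and 989 reads (-0.45, -0.57 to -0.33). SLC38A9, the lysosomal arginine sensor that signals to mTORC1, had 150 and 102 (-0.46, -0.84 to -0.09). Both intervals lay below 0, and the class had 1586 and 1091 reads (-0.45, -0.56 to -0.34). The other measured SLC38 genes, whose roles are less settled, were SLC38A10 with 2881 and 2337 reads (-0.21, -0.29 to -0.13) and SLC38A6 with 400 and 354 (-0.09, -0.30 to 0.12). The exons of SLC38A6 overlap those of TRMT5 on the opposite strand. Their class summed to 3282 and 2692 reads (-0.20, -0.27 to -0.12), which included 1 read of SLC38A8 in C1 and 1 of SLC38A11 in D1.

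The SLC36 carriers, classed here as proton coupled, mostly move small amino acids such as glycine, alanine and proline out of lysosomes or into cells. SLC36A1, the gene of the lysosomal PAT1, had 447 and 325 reads (-0.37, -0.58 to -0.16), and SLC36A4, the PAT4 gene, had 229 and 149 (-0.53, -0.84 to -0.23). Both were lower in D1. SLC36A2, a carrier gene of kidney and muscle, had 22 and 24 reads (0.21, -0.68 to 1.12), and SLC36A3 had 1 and 0. The SLC43 family also holds SLC43A3, whose product carries purine bases and not amino acids, with 0 reads in C1 and 1 in D1. In all, 14 members were below the filter, none with more than 15 reads in a library, and 4 members in C1 and 5 in D1 had 0 reads. SLC1A7, SLC7A3, SLC7A10 and SLC7A13 were not analysed here.

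The order of levels changed between the libraries. On the deposited TPM scale, which is per transcript length, the most abundant members of C1 were SLC38A2 at 240.6, SLC3A2 at 226, SLC7A5 at 190.1 and SLC1A5 at 95.2 TPM. In D1 the order was SLC7A5 at 483, SLC3A2 at 299.7, SLC1A5 at 180.4 and SLC38A2 at 117 TPM. SLC7A5 made up 16.2% of the summed TPM of the 36 members in C1 and 31.9% in D1, while SLC38A2 made up 20.5% and 7.71%. SLC3A2 kept nearly the same place, with 19.2% and 19.8%. The TPM ratio of SLC7A5 to SLC38A2 was 0.790 in C1 and 4.14 in D1, and the ratio of SLC1A5 to SLC38A2 was 0.395 and 1.55. With no second library of either kind, the spread of these ratios between cultures is unknown.

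**Figure D3:**
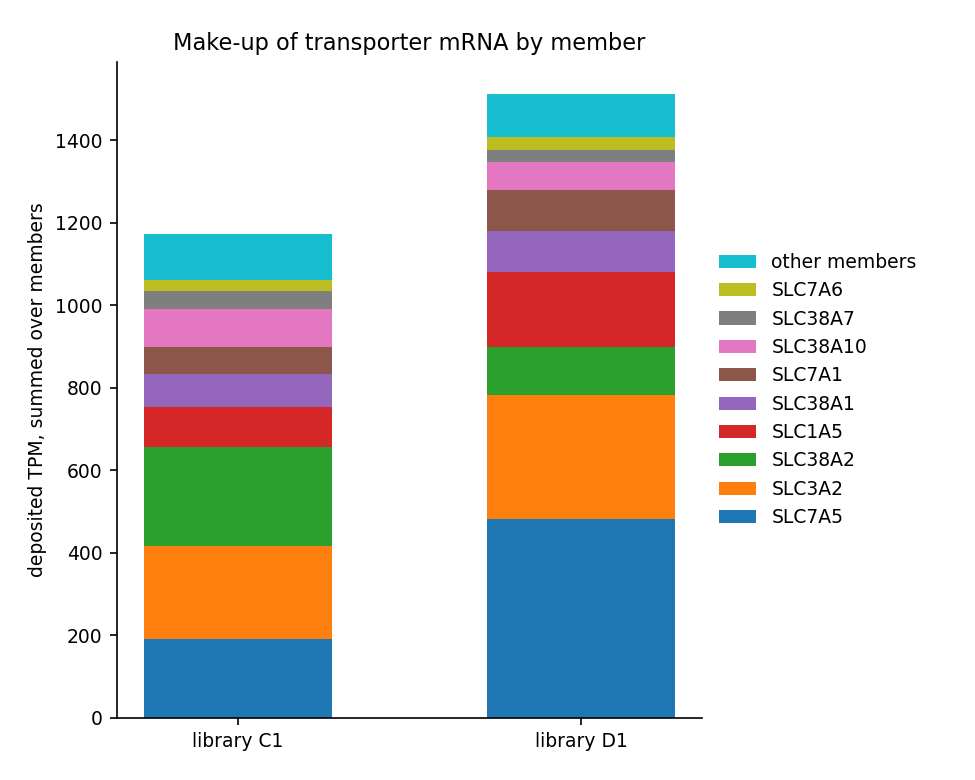
Deposited TPM summed over the 36 members in each library (1 bar per library, from 0), divided by the 9 members with the highest levels and the others together. SLC7A5 grows from 190.1 to 483 TPM from C1 to D1 and SLC38A2 shrinks from 240.6 to 117 TPM.

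Scaling moved some of these calls. With plain library totals or with the deposited TPM in place of TMM-scaled counts, the median gene shifted by -0.12 and -0.15 on the log2 scale. SLC1A5 then stood at 0.95 and 0.92, under 2-fold, and SLC38A2 at -1.01 and -1.04, past 2-fold, so that 2 members were higher and 3 lower under either. Under these settings 1.76% and 1.54% of all genes were at least 2-fold higher, and 5.63% and 5.59% at least 2-fold lower. The members' median turned to -0.01 and -0.05, beside -0.11 and -0.14 for all genes.

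**Figure D4:**
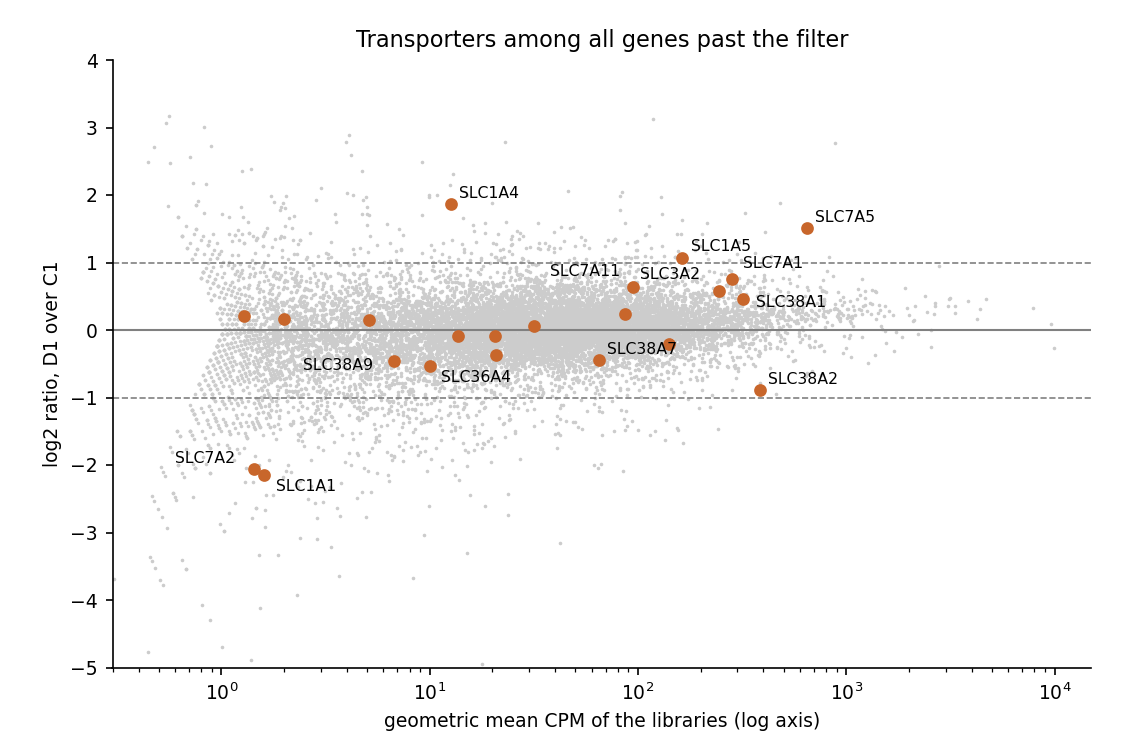
Log2 ratio of D1 over C1 against the geometric mean CPM of the libraries (log axis) for the 13225 genes past the filter (grey) and the 22 members (orange, named where the ratio is past 0.4 in either direction). Dashed lines mark 2-fold, and 16 grey points beyond the axis are not drawn. SLC7A5 and SLC38A2 have the highest geometric mean CPM of the members, a scale not corrected for length, and lie at 1.51 and -0.89.

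Genes that work with these transporters were read from 7 lists. Among 15 transcription regulators, none was at least 2-fold different, the interval lay above 0 for 10 and below 0 for 4, and the median log2 ratio was 0.29. Beside these and the counts below, 30.9% of all genes had an interval above 0 and 27.2% below 0, and 2.4% were at least 2-fold higher and 4.54% lower. These shares are over all genes past the 1 CPM filter, and intervals narrow with depth. Of 2661 genes at 100 CPM or more in either library, 1486 had an interval above 0 and 724 below 0, with a median of 0.12. Of 9855 genes at 10 CPM or more, 3719 lay above 0 and 2870 below, with a median of 0.04. ATF4 had 7700 reads in C1 and 13514 in D1 (0.90, 0.86 to 0.94), and its partner gene CEBPG had 518 and 750 (0.62). EPAS1, which encodes a hypoxia-inducible factor, had 2014 and 1189 (-0.67). ATF4 protein is controlled by translation as well, which mRNA does not measure.

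Several enzymes that use the carried amino acids were higher in D1. Of 11 measured genes of glutamine, glutamate, aspartate and proline metabolism, 2 were at least 2-fold higher and none lower, the interval lay above 0 for 8 and below 0 for 1, and the median was 0.41. Those past 2-fold were ASNS, asparagine synthetase, with 1258 and 3138 reads (1.41), and PYCR1, an enzyme of proline synthesis, with 2157 and 4084 (1.01). GPT2, mitochondrial alanine transaminase, had 911 and 1556 reads (0.86). PYCR1 lay so near the 2-fold line that the shift of -0.12 from plain library totals puts it under. Of 9 genes of cystine and glutathione metabolism, 2 were at least 2-fold higher and none lower, and the interval lay above 0 for 5 and below 0 for 2 (median 0.19). Those past 2-fold were CHAC1, a glutathione-degrading enzyme (86 and 215 reads, 1.41), and CBS, the first enzyme of transsulfuration (244 and 561 reads, 1.29). GCLM, the modifier subunit of the enzyme that starts glutathione synthesis, had 0.44. None of 9 measured genes of branched chain and arginine metabolism was 2-fold different, with the interval above 0 for 4 and below 0 for 1 (median 0.24). BCAT1, the cytosolic branched chain transaminase, had 1515 and 2571 reads (0.85), the urea cycle gene ASS1 533 and 746 (0.57) and BCKDHB, a subunit of the branched chain ketoacid dehydrogenase, 299 and 201 (-0.48).

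Carriers from other families did not share one direction. Of 21 listed genes, 18 passed the filter, with 1 at least 2-fold higher, 1 at least 2-fold lower, the interval above 0 for 4 and below 0 for 7, and a median of -0.19. SLC6A9, the glycine transporter GlyT1, had 112 and 466 reads (2.14, 1.85 to 2.46), and SLC6A6, the taurine transporter, had 1200 and 467 (-1.27, -1.43 to -1.12). SLC6A20, a proline carrier, had 39 and 24 reads (-0.60, -1.41 to 0.16). Of 19 measured genes of amino acid sensing for mTORC1, none was at least 2-fold higher and 1 was lower, with the interval above 0 for 4 and below 0 for 7 (median -0.10). The exception was CASTOR1, a cytosolic arginine sensor, with 84 and 18 reads (-2.10, -2.95 to -1.39), while CASTOR2 had -0.42 and NPRL3, a subunit of the GATOR1 complex, 0.36. Among 6 genes tied to the turnover or placement of transporters none was 2-fold different, with the interval above 0 for 1 and below 0 for 3 (median -0.08), MUC1 at -0.75, the ubiquitin ligase gene NEDD4 at -0.18 and LAPTM4B, which brings LAT1 to lysosomes, at -0.12.

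**Figure D5:**
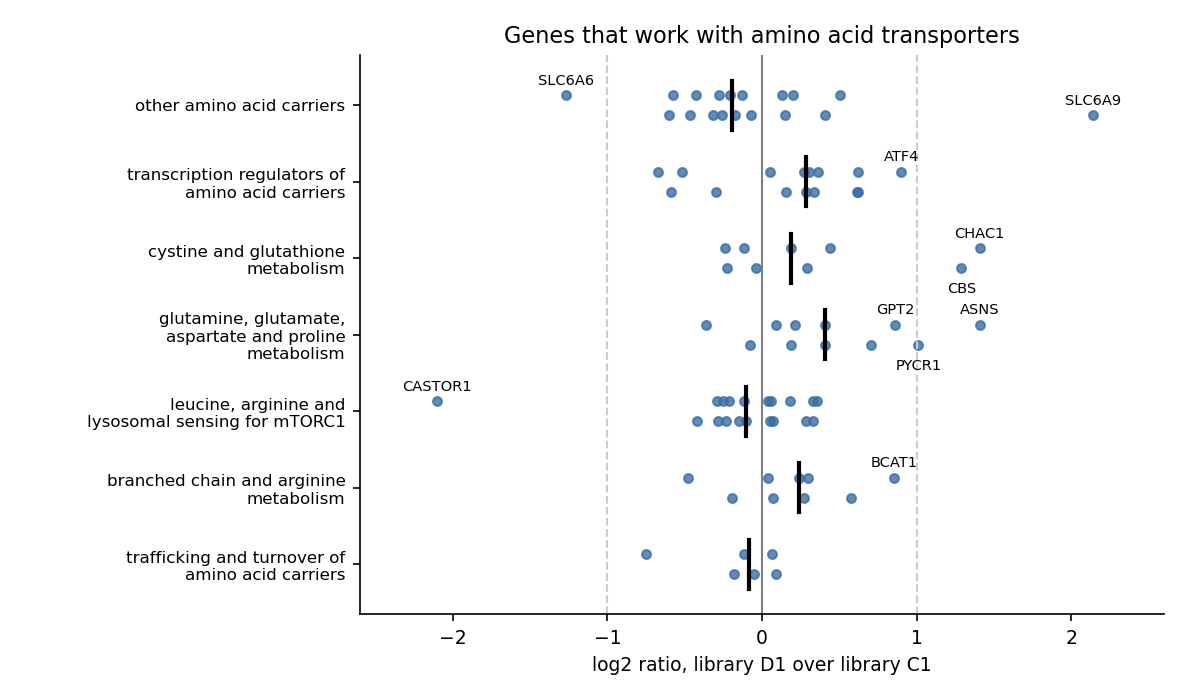
Log2 ratio of D1 over C1 for the genes past the filter in the 7 lists (points, 1 per gene), with the median of each list (black bar) and dashed lines at 2-fold. SLC6A9 at 2.14 and CASTOR1 at -2.10 lie farthest from 0, and ATF4 lies at 0.90.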

How the data were processed

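RNA of 2 FaDu samples was sequenced on day 2, 1 library per condition. The submitters' processing notes name Bowtie2, RSEM and the hg38 build. Their versions, annotation, strand setting and filters are not given in any source used here. The deposited table holds, per the file headers, the authors' estimated counts, TPM and FPKM per gene. The estimated counts were not whole for 48.9% (C1) and 48.2% (D1) of genes and were rounded. The TPM and FPKM values deposited by the authors were used for levels and as alternatives, with 0.1 added.

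TMM factors were computed in edgeR 4.0.16 (R 4.3.3) over all 16951 genes, 1.04 (C1) and 0.960 (D1). Log2 ratios add 0.5 counts per library. Intervals are 95% Clopper-Pearson intervals of a gene's or sum's share of reads in library D1, which cover counting error only. A size call is 2-fold or more, made for genes that reach 1 CPM in either library. The procedure was tested on simulated counts with planted ratios and counting error only, which cannot speak to the spread between cultures. Every member past the filter was named, and from each list up to 3 genes past the filter, by absolute ratio. The members and lists were chosen with earlier results of these data known. Columns C1 and D1 were read provisionally as control and knock-down, and nothing rests on that reading. Coordinates are RefSeq's (GRCh38.p14), matched by gene ID for all 36 members. Exon overlaps are GENCODE 29's. Planned protein comparisons were not made.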

Additional observations from a re-analysis of the deposited data

How the results depend on the processing

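All 22 member ratios stayed within their counting interval with median-of-ratios scaling and with 5 counts added. With plain library totals and with the deposited TPM 10 of them left it, and with the deposited FPKM 9 did. No ratio whose interval lay on one side of 0 changed sign in these settings. The log2 ratios of the sums that left their interval were, with plain library totals, 0.81 for SLC1, 0.45 for SLC3, 1.01 for SLC7, -0.40 for SLC38, 0.50 for cationic, 1.34 for large neutral, -0.57 for lysosomal, -0.31 for other SLC38, 1.01 for small neutral and -0.40 for system A. With the deposited TPM they were 0.80 for SLC1, 0.41 for SLC3, 1.06 for SLC7, -0.52 for SLC38, 0.45 for cationic, 1.31 for large neutral, -0.61 for lysosomal, -0.37 for other SLC38, 0.96 for small neutral and -0.57 for system A. With the deposited FPKM they were 0.83 for SLC1, 0.44 for SLC3, 1.09 for SLC7, -0.49 for SLC38, 0.48 for cationic, 1.34 for large neutral, -0.58 for lysosomal, -0.34 for other SLC38, 0.99 for small neutral and -0.54 for system A. With a filter of 10 CPM, 3 members passed 2-fold upward and 0 downward, since SLC1A1 and SLC7A2 fell below the filter. Of all 9855 genes past that filter, 1.74% passed 2-fold upward and 2.19% downward. With no expression filter the counts were 6 and 6 over 35 members, with the additions coming from genes of 2 reads or fewer. The shares over 16932 genes were then 6.14% and 9.86%. Among the 8 members with whole counts, an alternative chosen after seeing the data, the counts were 1 and 1. The shares over 5895 genes with whole counts were 3.04% and 5.67%. No replicate could be left out. No paired analysis was possible because each condition has 1 library.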

Other observations

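Several carriers placed on lysosomes had lower levels in library D1, a grouping made after the values were seen, so that its common direction follows from the choice. It joins SLC38A7, SLC38A9 and SLC36A1 with CTNS, the cystine exporter lost in cystinosis (470 and 319 reads, -0.47), SLC66A1, an exporter of cationic amino acids (462 and 291 reads, -0.58), and SLC15A4, a carrier of histidine and peptides (559 and 454 reads, -0.21). The ratios of the 6 genes ran from -0.58 to -0.21.

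The deposited estimated counts and TPM together give a mean transcript length per gene and library. Relative to the median gene, this length was longer in library D1 by 0.16 on the log2 scale for SLC38A9, the one member of 17 with at least 100 reads in both libraries that passed 0.1. Of 10365 such genes 5.07% passed 0.1. SLC7A11 followed at 0.09.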
